A study of Mus musculus with 6 samples.

Results

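Unnamed loci are genes that the authors' transcript assembly built from the reads and for which the deposited isoform table gives only a serial number (XLOC and digits) where other genes have a symbol. Members were chosen by that name alone, with the suffix that numbers isoforms removed. They came to 1682 loci with 3213 isoforms, of 17022 gene names and 60744 isoforms in the table. No expression value entered the choice.

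RNA was taken from sensory neurons of dorsal root ganglia in male C57Bl/6 mice, whose labels say both adult and 4 to 6 weeks old. In the crush group the sciatic nerve was crushed for 10 seconds, and in the sham group it was only exposed for 10 seconds. Ganglia of levels L3, L4 and L5 on the operated side were taken 7 days later and their neurons cut out by laser microdissection. Each group had 3 libraries of polyadenylated RNA, called sham 1 to 3 and crush 1 to 3 here, and no source used here ties them to separate animals. The p-values given here therefore rest on the spread between 3 libraries a group, and this spread may be technical.

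An assembler such as Cufflinks joins aligned reads into transcripts without needing to know the genes in advance, so it also reports transcription outside annotated genes. Such loci can be long non-coding RNAs, transcripts that start back to back with a coding gene at a shared promoter, tails of a known gene beyond its annotated end, pieces of a gene missing from the annotation, or unspliced background. Many long non-coding RNAs are spliced and polyadenylated but are present at lower levels and in fewer cell types than messenger RNAs.

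Most unnamed loci were scarce. Levels were deposited as FPKM, which sets the fragments of a transcript against its length and the fragments mapped in the library, and were summed over the isoforms of a locus. The median locus had a mean of 0.196 FPKM over the 6 libraries, against 5.57 for the 15340 named genes. A mean of at least 1 FPKM, the minimum for testing, was reached by 155 loci (9.22%) and by 12134 named genes (79.1%). At least 5 FPKM was reached by 45 loci, at least 10 by 24 and at least 100 by 3. All 6 libraries had at least 1 FPKM for 112 loci, and 1 locus was listed at 0 in all of them. The plot of levels shows both distributions.

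**Figure D1:**
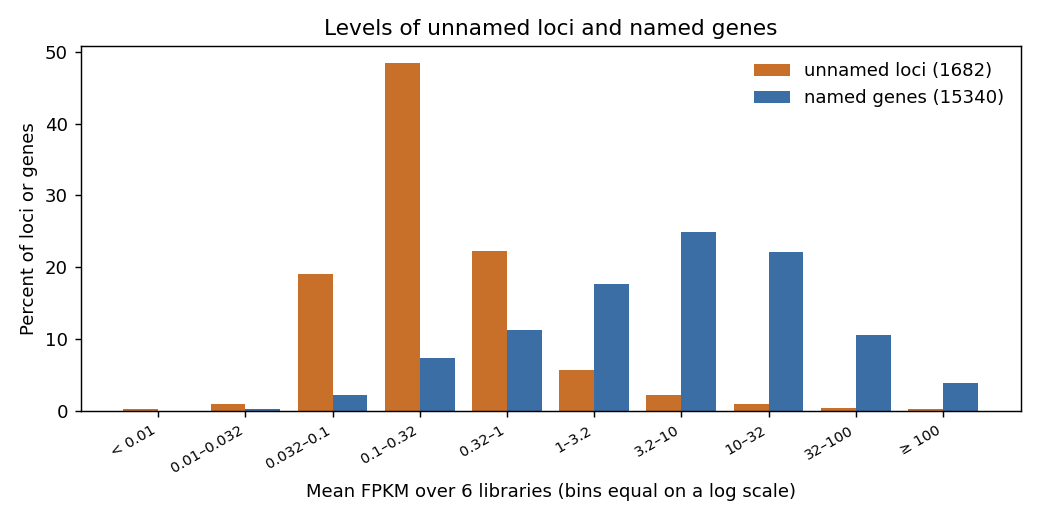
Percent of unnamed loci and of named genes (vertical axis) in bins of mean FPKM over 6 libraries (horizontal axis, bins equal on a log scale). Of the loci, 48.4% lie in the bin that starts at 0.1 FPKM, and of the named genes 24.9% lie in the bin that ends at 10 FPKM.

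The loci also differed from named genes in structure. A single exon was all that 614 loci had (36.5%), against 2.89% of named genes. A further 534 loci had 2 exons and 534 had 3 or more, up to 20. The longest isoform had a median of 1367.5 bases, against 3485 bases for named genes, and the median span on the chromosome was 3838.5 bases against 24615.5. Only 1 isoform was listed for 975 loci, and at most 11 for 4 loci. These 4 were XLOC_011139, XLOC_016078, XLOC_029771 and XLOC_032460, and the next in isoform number that the naming rule takes was XLOC_025526 with 10. XLOC_011139 overlapped exons of the growth factor gene Pdgfb on the other strand and matched the antisense RNA Gm41361 of a later annotation in 3 of 5 internal exons. XLOC_016078 began 1396 bases from Skor2, a transcriptional corepressor gene, in divergent orientation. Loci were found on all chromosomes, from 124 on chromosome 7 to 35 on X and 2 on Y.

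Strand separated the spliced loci from those of 1 exon. Of the 1068 loci with 2 or more exons, 50.7% were given the plus strand, and of the 614 with 1 exon, 93.5%. No source used here says that the libraries kept strand, and an unspliced transcript has no splice sites from which to read one, so the strand of the 1-exon loci is not read here. Spliced loci also passed the minimum for testing more often as a plain count: 126 of 1068 (11.8%) against 29 of 614 (4.72%).

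Position against named genes was read from the authors' exon file (mouse genome build mm9). Loci farther than 5 kb from any named gene numbered 738, and 426 shared exon sequence with a named gene on the strand given. Of the 426, 325 had 1 exon (and a strand that is only as given), which is 52.9% of all 1-exon loci. Among spliced loci the largest class was the one farther than 5 kb, with 650 of 1068 (60.9%), and 101 shared exon sequence on the same strand. The median gap to the nearest named gene was 14071.5 bases for spliced loci and 0 for 1-exon loci.

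Among spliced loci within 5 kb of a named gene but not overlapping one, most lay back to back with its start. Within 5 kb, 106 spliced loci ran away from the start of a named gene on the other strand, 34 lay past its 3′ end on the same strand, and 38 lay in another orientation. The median gap of the 106 was 706.5 bases, and 50 of them began within 500 bases. Their median level, 0.224 FPKM, was close to the 0.217 FPKM of spliced loci farther than 5 kb. A further 50 spliced loci overlapped exons of a named gene on the opposite strand (median 0.298 FPKM), and 49 lay inside a named gene without exon overlap (0.136 FPKM). The plot of position classes gives the count of each class by exon number.

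**Figure D2:**
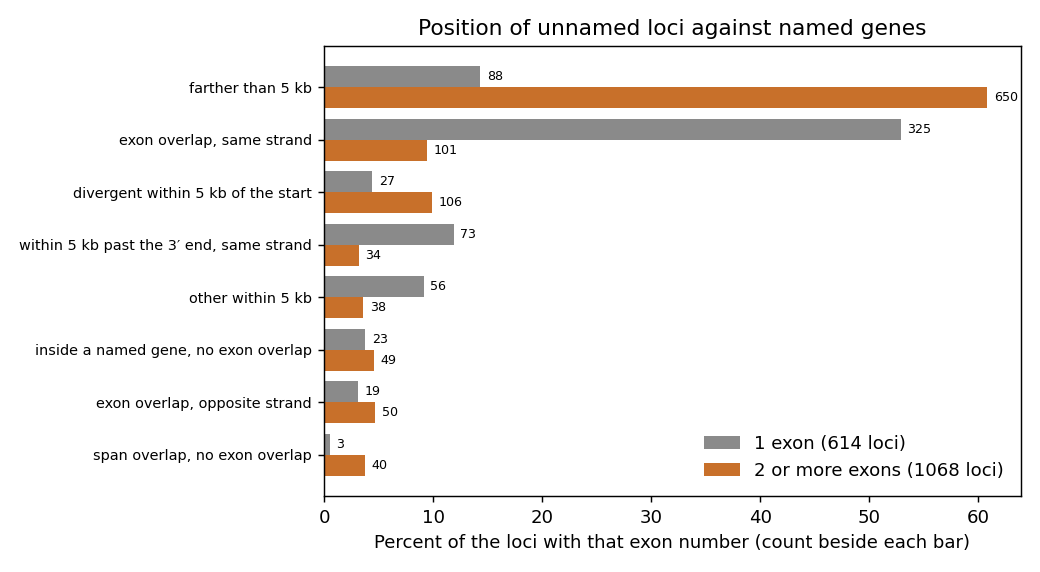
Percent of unnamed loci of 1 exon (614) and of 2 or more exons (1068) in each position class, with the number of loci beside each bar. The 1-exon loci are mostly in the class of same-strand exon overlap (325), and the spliced loci mostly farther than 5 kb from a named gene (650).

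The divergent arrangement is shown here with the start of Tshz3, a zinc-finger transcription factor, because the locus beside it is among the more abundant ones. XLOC_030343 (mm9 chr7:37411516-37482651, minus strand, 5 isoforms with up to 8 exons) begins 82 bases from the Tshz3 gene on the other strand. The 250 bases before the Tshz3 start, from RefSeq at GRCm38.p6 chr7:36697868-36698117 (plus strand), are printed with each CG dinucleotide in capitals; CG reads the same on both strands.
Tshz3 promoter: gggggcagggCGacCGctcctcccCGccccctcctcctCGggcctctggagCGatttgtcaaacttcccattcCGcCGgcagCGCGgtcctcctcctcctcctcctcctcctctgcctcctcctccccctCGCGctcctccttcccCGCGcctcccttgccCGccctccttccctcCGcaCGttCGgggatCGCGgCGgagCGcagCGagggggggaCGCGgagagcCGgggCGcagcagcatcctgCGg
These 250 bases held 27 CG dinucleotides. With 50 bases after the start the count was 33, against a median of 7 in windows of the same 300 bases over 27025 RefSeq genes, of which 44.4% held 10 or more. Among named genes of the deposited table, to which Tshz3 belongs, the 11216 with a sequence (73.1%) had a median of 20, and 79.7% of them held 10 or more. A promoter sequence was matched for 79 of the 106 genes (74.5%) with a divergent spliced locus within 5 kb, a set that holds Tshz3. Those 79 had a median of 25.5, and 86.1% of them held 10 or more. Genes without a matched sequence are missing from both sets, and the difference between the sets was not tested.

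Some of the spliced loci held exons of known genes under a later annotation. The files use mm9 and the annotation at hand, GENCODE M21, uses GRCm38, so coordinates were not compared. Instead an internal exon was matched when its length and the lengths of the introns on both sides were the same in the locus and in a reference transcript on the same chromosome and strand. Of 534 loci with 3 or more exons, 104 (19.5%) had such a match, to 102 reference genes. None of their 1043 isoforms of 3 or more exons matched a transcript of another chromosome. By the same measure, 93.1% of 52623 isoforms of named genes matched, and 0.498% matched on another chromosome. A match names the exons, not the whole locus: all internal exons matched in 61 of the 104, and 2 or more internal exons in 51.

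By GENCODE type, 55 of the 104 loci matched long non-coding RNAs, 42 protein-coding genes and 7 pseudogenes. Of the long non-coding ones, 43 were intergenic and 6 antisense to a gene. Long non-coding matches had a median level of 0.519 FPKM and protein-coding ones 0.318 FPKM, and loci of 3 or more exons without a match had 0.265 FPKM. Exons of a named gene on the same strand were overlapped by 4 of 55 long non-coding matches and by 17 of 42 protein-coding ones. For 12 of the 104 the reference gene was itself named in the deposited table under the same symbol, so the matched exons of these loci belonged to a listed gene. Among them were pieces of Shank2, a scaffold protein of excitatory synapses (7 of 7 internal exons), and of Wnk3, a kinase that acts on chloride cotransporters (5 of 5).

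The exons printed next belong to the 3 most abundant long non-coding matches and show what the assembly joined. The exon is in capitals and the 15 bases of each neighbouring exon, as spliced, are in lower case, 5′ to 3′ from the GENCODE M21 transcripts.
Gm45881, exon of XLOC_035100: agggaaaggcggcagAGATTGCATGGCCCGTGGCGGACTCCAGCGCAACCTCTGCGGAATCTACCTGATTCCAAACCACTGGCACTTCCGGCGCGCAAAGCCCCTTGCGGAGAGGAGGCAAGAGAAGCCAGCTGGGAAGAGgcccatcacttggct
Gm49678, exon of XLOC_012946: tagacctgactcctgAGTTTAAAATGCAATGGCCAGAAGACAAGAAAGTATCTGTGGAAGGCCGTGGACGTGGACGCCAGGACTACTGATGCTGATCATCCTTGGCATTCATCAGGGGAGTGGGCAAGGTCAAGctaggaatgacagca
Gm45869, 63-base exon of XLOC_028410: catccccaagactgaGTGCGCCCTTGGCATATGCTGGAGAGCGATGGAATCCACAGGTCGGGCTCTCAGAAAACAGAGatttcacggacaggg
Gm45869, 224-base exon of XLOC_028410: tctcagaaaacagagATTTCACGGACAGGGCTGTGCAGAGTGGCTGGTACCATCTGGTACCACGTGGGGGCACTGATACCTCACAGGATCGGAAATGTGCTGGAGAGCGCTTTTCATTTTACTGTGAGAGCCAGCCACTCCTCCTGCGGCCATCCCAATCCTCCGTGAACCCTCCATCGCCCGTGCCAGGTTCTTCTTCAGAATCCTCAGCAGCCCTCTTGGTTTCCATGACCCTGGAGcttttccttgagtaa
Gm45869, 228-base exon of XLOC_028410: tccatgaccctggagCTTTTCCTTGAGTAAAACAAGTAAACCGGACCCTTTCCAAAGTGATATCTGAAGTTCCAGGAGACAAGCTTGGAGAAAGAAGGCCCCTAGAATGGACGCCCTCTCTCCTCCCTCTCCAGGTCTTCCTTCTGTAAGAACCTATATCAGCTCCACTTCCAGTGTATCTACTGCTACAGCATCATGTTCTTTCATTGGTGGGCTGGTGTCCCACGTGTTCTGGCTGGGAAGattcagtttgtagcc
The Gm45881 exon has 126 bases (GRCm38 chr9:117708362-117708487, minus strand; mm9 chr9:117617480-117617605) between introns of only 100 and 150 bases. The Gm49678 exon has 119 bases (GRCm38 chr16:75420224-75420342, minus strand; mm9 chr16:75420469-75420587) between introns of 31587 and 26729 bases. All 3 internal exons of XLOC_028410 matched Gm45869, with 63, 224 and 228 bases (GRCm38 chr6:126554733-126554795, chr6:126553821-126554044 and chr6:126551222-126551449, minus strand).

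The loci with these matches did not pass the test between the groups. XLOC_035100 matched Gm45881 in 1 of 2 internal exons. This locus, 76437 bases from the RNA-binding protein gene Rbms3, had 26.1, 37.2 and 24.3 FPKM in sham 1 to 3, against 24.0, 29.6 and 26.3 in crush 1 to 3. The groups overlapped and sham 2 was the highest library (log2 change -0.11, adjusted p = 0.800, limma). XLOC_028410 (Gm45869), 13400 bases from the potassium channel gene Kcna5, had a mean of 5.41 FPKM and a log2 change of 0.01 (adjusted p = 0.972). XLOC_012946, matched to Gm49678 by 1 internal exon, had a mean of 6.21 FPKM and a log2 change of -0.13 (adjusted p = 0.722).

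Among protein-coding matches, XLOC_025191 matched Cfap99, a gene of ciliary and flagellar proteins, in 13 of 14 internal exons at a mean of 2.16 FPKM. Further loci matched parts of large genes of the ciliary axoneme at lower levels: Dnah7a (XLOC_000678, 9 of 9 internal exons, 0.614 FPKM), Cfap54 (XLOC_002952, 6 of 6, 0.133 FPKM) and Dnah7c in 3 loci (XLOC_000092, XLOC_000093 and XLOC_000094, 0.0911 to 0.435 FPKM). With Cfap99 and single loci of Wdr66, Dnhd1 and Rp1, further genes listed for cilia, these made 9 loci of 7 genes, from 0.0911 to 2.16 FPKM. This group was put together after the matches were seen and was not tested.

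The 3 most abundant loci were short. XLOC_028026 (mm9 chr6:3150765-3151672, 2 isoforms, 908 bases) had 984, 1430 and 933 FPKM in sham 1 to 3, against 1235, 996 and 1290 in crush 1 to 3. It alone held 34.4% to 41.2% of the summed FPKM of all unnamed loci, and the 10 most abundant loci held 65.0% to 71.9%. XLOC_009667 (chr14:51085937-51086131, 125 bases after splicing) had a mean of 364 FPKM and XLOC_021640 (chr3:124088551-124088989, 364 bases) 151 FPKM. Sham 2 was the highest library for all 3, and their groups overlapped (adjusted p = 0.863, 0.917 and 0.817, limma). Isoforms shorter than 300 bases held 20.2% to 22.5% of the summed FPKM of the loci; a short transcript has few positions for a fragment, and what that does to its FPKM was not tested.

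Of the other 7 of the 10, XLOC_036719 is described with the called loci. XLOC_025101 had a mean of 83.1 FPKM, XLOC_034849 60.6, XLOC_002921 59.7, XLOC_017002 42.9, XLOC_008605 34.4 and XLOC_000111 28.2. None of these 6 was called (adjusted p from 0.632 for XLOC_008605 to 0.977 for XLOC_025101, limma). In XLOC_025101 and XLOC_034849 the log2 changes were within 0.01 of 0.

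Together the loci made up about the same share of each library. Their part of the summed FPKM was 0.870%, 0.951% and 0.825% in sham 1 to 3, against 0.970%, 0.914% and 0.971% in crush 1 to 3. Sham 2 lay within the crush range, so the groups overlapped. The means were 0.882% ± 0.0639 and 0.952% ± 0.0326 (SD, n = 3 each; exact permutation test, 2-sided, p = 0.2; the smallest p this design allows is 0.1). Without XLOC_028026 the share was 0.535% to 0.564% in sham and 0.587% to 0.599% in crush, with no overlap (exact permutation p = 0.1). This share without the most abundant locus was not among the planned tests. The number of loci at 1 FPKM or more was 163, 157 and 153 in sham and 155, 165 and 179 in crush (exact permutation p = 0.4).

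**Figure D3:**
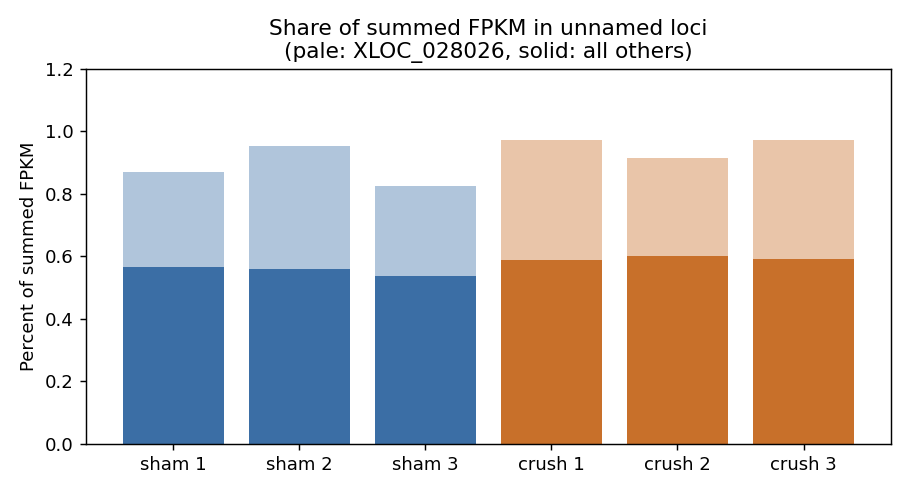
Percent of the summed FPKM of each library held by unnamed loci (vertical axis, from 0), with XLOC_028026 in the pale upper part of each bar and all other loci in the solid lower part. Without the pale part the 3 crush libraries, 0.587% to 0.599%, all lie above the 3 sham libraries.

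The samples themselves were checked on named genes. Of 11 neuron markers 10 were in the table, with summed levels of 6974 to 8880 FPKM in sham and 6709 to 7752 in crush, and 2 of them, Nefm and Nefh, fell. The injury genes Atf3, Npy, Gal, Sprr1a and Gap43 all rose (5 of 5 called). Satellite glia and Schwann cell markers were also high (2931 to 4089 FPKM in sham, 3007 to 3298 in crush), and limma called 0 of 10 (unadjusted p under 0.05 for 3). Macrophage markers summed to 63.3 to 76.3 FPKM in sham and 137 to 152 in crush, and 6 of 7 tested rose. Markers of fibroblasts and vessels summed to 122 to 163 and 186 to 196 FPKM, and limma called 0 of 8 (unadjusted p under 0.05 for 4). No marker in the table was at 0 in all libraries. Sham 2 stood apart: over all genes its log2 levels correlated with those of sham 1 and sham 3 at 0.978 and 0.981, and these 2 with each other at 0.996.

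Few unnamed loci passed the test of crush against sham. Of 155 loci tested with limma on log2(FPKM + 1), 6 were called at an adjusted p under 0.05 (3.87%), beside 3.78% of all 12289 gene names. Of the 6, 5 rose (all names, 2.38%) and 1 fell (all names, 1.39%). XLOC_015994, XLOC_011224 and XLOC_020874, 3 of the 5, had sham means under 1 FPKM and passed the minimum only through their crush values. In all, 13 of the 155 passed in this way, and 6 passed only through their sham values. Loci that pass through 1 group had to differ, so nothing is read from these counts or from the differences of such loci. The added 1 makes these log2 changes smaller than those of the plain FPKM, most of all at low levels. The median log2 change of the 155 was 0.03, against -0.02 over all names, and 144 of the 155 lay within 0.5 of 0. In 33 loci (21.3%) the 3 values of 1 group lay all above those of the other, below the 26.3% of all names: 19 with crush higher (12.3%; all names 12.2%) and 14 with crush lower (9.03%; 14.1%). In bulk samples such as these, fewer cells of a type and less RNA per cell cannot be told apart.

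The largest log2 change was that of XLOC_015994 (chr18:42775297-42782366, minus strand), a locus of 9 isoforms with up to 5 exons. It passed the minimum only through its crush values, so nothing is read from its difference, which is given as values. It lies 22646 bases from Ppp2r2b, a regulatory subunit of protein phosphatase 2A enriched in brain, and 1 of its 3 internal exons matched the long intergenic RNA AC121603.3. It had 1.03, 0.633 and 0.452 FPKM in sham 1 to 3, against 2.88, 2.54 and 3.73 FPKM in crush 1 to 3. Every crush library was thus above every sham library, with means of 0.705 ± 0.296 and 3.05 ± 0.613 FPKM (SD, n = 3 each). The ratio of the means was 4.32 and the log2 change 1.25 ± 0.16 (SE; adjusted p = 0.0136, limma). Ppp2r2b itself had 92.2 to 113 FPKM in sham and 113 to 119 in crush (log2 change 0.16, adjusted p = 0.448). No isoform of the locus reached a mean of 1 FPKM, so none was tested by itself, and the most abundant was the unspliced TCONS_00062707 with a mean of 0.582 FPKM.

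XLOC_025250 (chr5:53603162-53629877, plus strand, 8 isoforms, up to 7 exons) rose with crush as well. Its span overlaps that of Sel1l3 on the opposite strand, without shared exon sequence. Its values were 1.45, 1.35 and 1.48 FPKM in sham 1 to 3, against 3.78, 3.57 and 4.61 FPKM in crush 1 to 3. The sham libraries were close to each other and the crush libraries were all higher. The ratio of the means was 2.80 and the log2 change 1.03 ± 0.10 (SE; adjusted p = 0.00717, limma). It was called under all 16 alternative settings, with adjusted p from 0.0008 to 0.0455. None of its 3 isoforms with 7 exons reached a mean of 1 FPKM. They had between 0 and 0.528 FPKM in the sham libraries and between 0.0926 and 1.44 in the crush libraries, so these ranges overlapped.

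XLOC_011224 (chr15:92831941-92874386, plus strand, 4 isoforms, up to 4 exons) lies 195786 bases from Gxylt1, a xylosyltransferase that acts on the Notch receptor. It had 0.475, 0.684 and 0.375 FPKM in sham 1 to 3, against 1.95, 1.47 and 2.50 in crush 1 to 3. The groups did not overlap (ratio of means 3.86, log2 change 0.97 ± 0.15 SE, adjusted p = 0.0217, limma). XLOC_011224 too passed the minimum only through its crush values, so nothing is read from its difference. No isoform of the locus reached a mean of 1 FPKM, so none was tested by itself. The most abundant, TCONS_00042359, had 0.417, 0.658 and 0.346 FPKM in sham 1 to 3, against 0.881, 0.641 and 1.88 in crush 1 to 3, with overlap. TCONS_00046578, the isoform that reaches to the far end of the locus, had a mean of 0.234 FPKM. Its values were 0, 0.000158 and 0 FPKM in the sham libraries and 0.520, 0.484 and 0.401 FPKM in crush 1 to 3.

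XLOC_020874 (chr3:62669104-62693618, plus strand) lies 259735 bases from Gpr149, an orphan receptor gene. Its values were 0.745, 0.590 and 0.637 FPKM in sham 1 to 3, against 1.14, 1.45 and 1.59 in crush 1 to 3. The crush libraries were all above the sham libraries (log2 change 0.53 ± 0.10 SE, adjusted p = 0.0389, limma). This locus also passed the minimum only through its crush values, so nothing is read from its difference. Of its 7 isoforms 4 had 1 exon, and with only spliced isoforms it did not reach the minimum for testing.

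XLOC_036719 (chrX:86005360-86005641, minus strand) is a single isoform of 2 exons with 198 bases, and its nearest named gene, Il1rapl1, a synaptic receptor protein, is 1340781 bases away. It had 85.0, 79.3 and 84.6 FPKM in sham 1 to 3, against 111, 108 and 132 in crush 1 to 3. The groups did not overlap and the rise was the smallest of the 5 (ratio of means 1.41, log2 change 0.48 ± 0.09 SE, adjusted p = 0.0431, limma). It was the only called locus with a mean of at least 5 FPKM.

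The locus that fell was XLOC_023268 (chr4:149404526-149440953, plus strand, 7 isoforms), which shares exon sequence with the predicted gene Gm13067 on the same strand. Its sham libraries 1 to 3 had 2.75, 2.03 and 2.27 FPKM, and crush 1 to 3 had 1.16, 1.14 and 1.24. Every crush library was below every sham library (ratio of means 0.503, log2 change -0.61 ± 0.10 SE, adjusted p = 0.0242, limma). Gm13067 had 1.01 to 1.79 FPKM in sham and 0.617 to 0.901 in crush (log2 change -0.45, adjusted p = 0.158). The most abundant isoform of the locus, TCONS_00094608, has 1 exon of 7360 bases, and with only spliced isoforms the locus did not reach the minimum for testing.

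**Figure D4:**
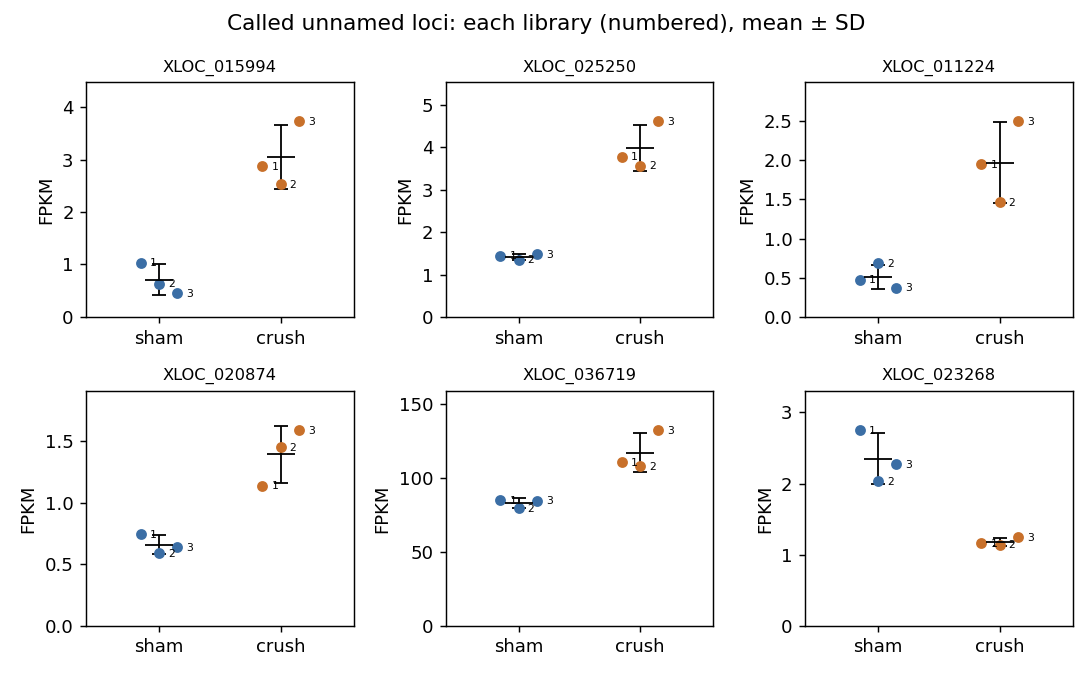
FPKM of the 6 called loci in each library (points, numbered by replicate), with the mean and SD of each group (black). In each panel the sham and crush points do not overlap, and XLOC_023268 is the locus with lower crush values.

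The calls rested on few libraries. Leaving out sham 2 gave 11 called loci (all names 9.55%), with all 6 among them. Leaving out sham 1 gave 2 (all names 0.968%), sham 3 gave 1 (0.610%), crush 1 gave 1 (0.431%), crush 2 gave 2 (0.667%) and crush 3 gave 1 (0.806%), and XLOC_025250 was called in each. None of the 6 changed sign when a library was left out. Macrophage markers also rose with crush, with the values given earlier, and their part in the changes of these loci was not tested.

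Several loci without a call also had groups that did not overlap, and they are given as values. XLOC_004630, on the other strand of the phosphatidylserine decarboxylase pseudogene Pisd-ps1, had 4.41, 5.74 and 1.70 FPKM in sham 1 to 3, against 10.9, 10.6 and 7.01 in crush 1 to 3 (log2 change 1.16 ± 0.34 SE, adjusted p = 0.135, limma). XLOC_025526, 330370 bases from Tmem132c, had 1.95, 2.44 and 2.44 FPKM and 3.26, 4.14 and 4.73 (adjusted p = 0.0532). XLOC_000710, 2595 bases from Nrp2, the gene of a semaphorin receptor, had 0.778, 1.10 and 0.801 FPKM and 1.50, 1.68 and 2.81 (adjusted p = 0.102). XLOC_007106, near the kinase gene Map3k9, and XLOC_006968 had log2 changes of 0.59 (adjusted p = 0.0778) and 0.50 (0.0653). XLOC_000710 and XLOC_007106 had sham means of 0.893 and 0.995 FPKM. Both passed the minimum only through their crush values, so nothing is read from their differences.

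On the lower side, XLOC_014026, inside the span of the ubiquitin ligase gene Trim39, had 2.08, 5.03 and 2.33 FPKM in sham 1 to 3, against 1.24, 0.853 and 1.58 in crush 1 to 3 (log2 change -0.84 ± 0.27 SE, adjusted p = 0.161, limma). Sham 2 was far above the other sham libraries there. XLOC_029693, a 1-exon locus over exon sequence of Shank1, a postsynaptic scaffold gene, had 6.15, 6.33 and 4.45 FPKM and 4.11, 4.00 and 3.39 (adjusted p = 0.136), and Shank1 itself 2.31 to 3.40 and 1.70 to 2.18 FPKM (adjusted p = 0.187). The log2 changes of XLOC_006609, XLOC_023541, XLOC_011277 and XLOC_004427 ran from -0.46 to -0.24 (adjusted p from 0.107 to 0.237). XLOC_023541 had a crush mean of 0.753 FPKM and passed the minimum only through its sham values, so nothing is read from its difference. XLOC_006609 matched Gm19196, a transcribed pseudogene, in 2 of 3 internal exons.

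Of the 8 tested spliced loci that lay divergent to a named gene, limma called 0 (all names 3.78%), and 4 had an unadjusted p under 0.05 (all names 17.6%), 3 of them lower and 1 higher after crush. Of the 8, 4 had a log2 change above 0, and their median was 0.01. XLOC_030343 beside Tshz3 had 6.08, 6.64 and 6.12 FPKM in sham 1 to 3, against 4.84, 3.64 and 4.39 in crush 1 to 3. All crush values were below all sham values (log2 change -0.47 ± 0.10 SE, adjusted p = 0.0571, limma), and Tshz3 had 4.69 to 6.23 and 4.95 to 5.95 FPKM (log2 change -0.03, adjusted p = 0.918). XLOC_028421, 1127 bases from Tspan11, a tetraspanin gene, had a log2 change of -0.43 (adjusted p = 0.0961), and XLOC_030530, 289 bases from the zinc-finger gene Zfp592, -0.31 (0.0885). XLOC_021274, 442 bases from Tbl1xr1, a gene of nuclear receptor corepressor complexes, had 0.690, 1.11 and 0.962 FPKM in the sham libraries and 1.22, 1.35 and 1.93 in the crush libraries (log2 change 0.37, adjusted p = 0.223). XLOC_030530 averaged 0.860 FPKM in crush and passed the minimum only through its sham values. XLOC_021274 averaged under 1 FPKM in sham and passed only through its crush values. Nothing is read from the differences of these loci.

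Isoforms of the loci were tested one by one in the same way. Of 144 isoforms tested with limma 0 were called, and 11 had an unadjusted p under 0.05; over all 24485 isoforms, 0.0613% were called and 9.12% had an unadjusted p under 0.05. The smallest p belonged to the single isoform of XLOC_036719 (adjusted p = 0.214). Differences between isoforms of a locus could be tested for 27 loci with limma's diffSplice: 0 were called, beside 0.519% of 6746 genes, and 2 had an unadjusted p under 0.05 (all genes 6.23%). The smallest was that of XLOC_030343 (F test, adjusted p = 0.616). There TCONS_00119328 (4 exons) had 3.51, 3.38 and 3.37 FPKM in sham 1 to 3, against 2.40, 1.16 and 2.05 in crush 1 to 3, and TCONS_00120922 (5 exons), nearer the far end of the locus, 1.21, 1.34 and 1.26 and 1.05, 1.09 and 1.23. The next were XLOC_025706 (adjusted p = 0.644) and XLOC_023094 (0.807).

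Each locus was then set against its nearest tested named gene, by testing the difference of their log2 levels within each library. For 7 of 155 loci this difference changed with crush (4.52%), beside 4.77% of all 12289 pairs tested. Of the 7, 3 were called loci that rose more than their neighbour: XLOC_025250 against Sel1l3 by 0.76 ± 0.11 (log2, SE; adjusted p = 0.0166, limma), XLOC_015994 against Ppp2r2b by 1.09 ± 0.17 (0.0204) and XLOC_011224 against YAF2, its nearest tested gene and a partner of the transcription factor YY1, by 1.12 ± 0.18 (0.0234). Sel1l3 had 15.8 to 17.8 FPKM in sham and 19.8 to 20.9 in crush (log2 change 0.28, adjusted p = 0.0850), and YAF2 12.3 to 16.0 and 11.7 to 13.6 FPKM. The nearest tested gene need not be close: YAF2 lies 240012 bases from XLOC_011224, and Gyk, the pair gene of XLOC_036719, 2983242 bases from that locus. XLOC_015994 and XLOC_011224 (sham means 0.705 and 0.511 FPKM) entered this test only through their crush values. Their pair results carry that selection.

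In the other 4 pairs neither member was called alone. XLOC_030093, a 1-exon locus (so its strand is not read) 4487 bases from Rnh1, the ribonuclease inhibitor gene, had 5.72, 8.10 and 5.15 FPKM in sham 1 to 3, against 5.35, 5.83 and 6.26 in crush 1 to 3. Rnh1 had 46.9, 65.8 and 45.5 FPKM and 72.5, 74.1 and 84.3, so that only Rnh1 had groups without overlap (difference -0.64 ± 0.09, adjusted p = 0.0184, limma). XLOC_000306 lies inside the span of Cd55, a gene that protects cells from complement, on the other strand. It had 1.59, 1.05 and 1.13 FPKM and 1.48, 1.86 and 1.57, while Cd55 had 112 to 124 FPKM in sham and 89.8 to 97.3 in crush (difference 0.53 ± 0.11, adjusted p = 0.0466). XLOC_004630 differed from Pisd-ps1 by 0.69 (adjusted p = 0.0340) and XLOC_025526 from Tmem132c by 0.88 (0.0360). The calls of XLOC_004630 and XLOC_000306 were lost when 0.1 was added to the FPKM in place of 1. Reads of overlapping genes on opposite strands cannot be told apart in a library without strand, which applies to XLOC_025250, XLOC_000306 and XLOC_004630.

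Calls of pairs also shifted with single libraries left out, over all pairs as well as for these loci. Leaving out sham 2 gave 13 called loci (all pairs 9.81%), with the 7 among them. Leaving out sham 1, sham 3, crush 1, crush 2 or crush 3 gave 0 each (limma), with 19 to 29 loci at an unadjusted p under 0.05. Of all pairs, 0.960%, 0.163%, 0.0244%, 0.244% and 0.212% were called under these settings, in the same order. With the nearest gene on the same strand as neighbour, 5 were called (all pairs 4.82%), 3 of them from the 7. With a pseudocount of 0.1, 5 were called (all pairs 4.17%), all of them from the 7.

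**Figure D5:**
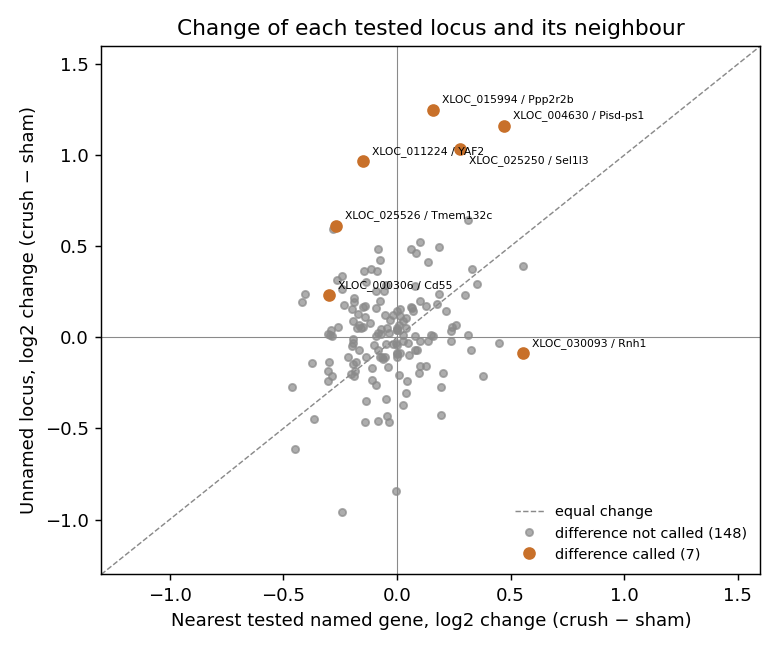
Log2 change of each of 155 tested loci (vertical axis) against that of its nearest tested named gene (horizontal axis), both crush minus sham on the log2(FPKM + 1) scale; the dashed line marks equal change. The 7 coloured pairs are those whose difference was called, 6 of them above the line and XLOC_030093 with Rnh1 below it.

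The authors' deposited table, which tested isoforms from group estimates, marked 75 of the 3213 isoforms of unnamed loci as significant (2.33%), beside 6.35% of all 60744 isoforms. Only 1526 of the 3213 (47.5%) had a test status of OK there; all 75 were among them, or 4.91%, beside 15.1% of all 25544 such isoforms. These 75 lay in 60 loci, of which 22 were tested here, and 4 of the 6 called loci held at least 1. The smallest q in the authors' deposited table was 6.8e-09 for TCONS_00025889, the only listed isoform of XLOC_006659. Its values were 16.3, 16.7 and 12.4 FPKM in sham 1 to 3, against 21.7, 17.2 and 15.1 in crush 1 to 3, so the groups overlapped (limma adjusted p = 0.513). The next, TCONS_00000966 of XLOC_000548 (q = 1.7e-08 in the authors' deposited table), had 0.227 FPKM in sham 1 and was listed at 0 in the other 5 libraries. Isoforms of XLOC_009838, XLOC_034646 and XLOC_025977 came next in the authors' deposited table, each with a mean under 0.25 FPKM and with groups that overlapped.

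Named long non-coding RNAs are the listed genes nearest in kind. Of 53 names chosen for comparison 23 were in the table and 18 were tested; limma called 0 (all names 3.78%; unadjusted p under 0.05 for 2), and the median log2 change was 0.03. Their summed level was 852 to 950 FPKM in sham and 898 to 969 in crush. The most abundant were Meg3, an imprinted RNA (353 to 470 FPKM in sham, 409 to 446 in crush), Snhg11 (75.7 to 137 and 112 to 148), Miat (103 to 106 and 94.7 to 105), Gas5, a host of small nucleolar RNAs (67.6 to 107 and 74.2 to 82.7), and 1700020I14Rik (54.4 to 59.1 and 46.2 to 51.3). For 1700020I14Rik the groups did not overlap (adjusted p = 0.136).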

How the data were processed

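The members and lists were chosen with earlier results of these data known. Expression was deposited as FPKM per isoform and library, with the authors' p-value and q-value per isoform in the authors' deposited table. TopHat 1.3.2, Cufflinks 1.1.0, Cuffdiff 1.2.1 and mm9 are named, per the submitters' processing notes. The deposited FPKM hold no read counts, so depth is unknown, and 0 sample columns belonged to another series.

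FPKM was summed over isoforms that share a gene name. Gene names, and likewise isoforms, that averaged 1 FPKM or more entered limma 3.58.1 (R 4.3.3) as log2(FPKM + 1) (mean-variance trend, 2-sided, Benjamini-Hochberg over all names or isoforms, threshold 0.05); diffSplice tested isoform differences. The pair test used the gene whose span is nearest on either strand. Position classes used reference-matched transcripts of named genes in the authors' exon file. In data simulated around the real means, with spreads shuffled, the locus test recovered 85.5% of 200 log2 changes of 1 and the isoform test 28.0%. The pair test recovered 65.2% of 198 and diffSplice 48.8% of 162. Changes were placed at random over all names or isoforms, so these are not rates for unnamed loci. The tested unnamed loci had a median of 2.47 FPKM, against 8.85 for tested named genes.

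Named are all called loci, the 10 largest rises and falls without overlap, the 10 most abundant, called pairs, the 5 with most isoforms, the 5 smallest authors' q and the 3 smallest isoform-difference p. GENCODE matches, isoforms named beside them and XLOC_021274 were chosen after their values were seen.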

Additional observations from a re-analysis of the deposited data

How the results depend on the processing

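Of 45 single values (loci, pairs), none changed direction with a call under any setting run. The called locus count (6) stayed between 5 and 7 with a pseudocount of 0.1, upper-quartile scaling or no mean-variance trend. It did so too with quantile normalization, status-OK isoforms or spliced isoforms only. Under these settings 3.65% to 4.19% of all names were called. Quantile normalization lost XLOC_020874. With spliced isoforms only, 4 of the 6 were tested and all 4 were among the 5 called. The count was 16 with sample weights (10.3%; all names 11.6%), 13 without a filter (0.773%; 2.94%), 1 at a minimum mean of 5 FPKM (2.22%; 3.65%; 1 of the 6 was tested), and 1 to 11 leaving out 1 library. Called pairs (7) were 37 without a filter (2.20%; all pairs 3.88%), 2 at a minimum of 5 FPKM (7.14%; 4.84%) and 0 to 13 leaving out 1 library. Without sham 2 and crush 3 together, a setting chosen after seeing the data, 14 loci (9.03%; all names 13.1%) and 13 pairs (8.39%; 11.1%) were called. The cause of these shifts was not tested, apart from the smaller number of loci tested at 5 FPKM. The difference in the number of loci reaching a level (8.67 more in crush at 1 FPKM) was -2 at 5 FPKM, and 2.33 to 14.3 leaving out 1 library. The difference in share (0.0696 percentage points) was 0.0411 to 0.104 leaving out 1 library. No called isoform was found under any of 12 other settings, and no called isoform difference under 7.

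Same-numbered samples correlated at 0.37, -0.31 and -0.49 in their deviations from the group means, so the replicate numbers were not taken as pairs. With the replicate number as a block, limma called 1 locus (XLOC_025250; all names 0.407%) and 0 pairs (all pairs 0.00814%), with 27 of each at an unadjusted p under 0.05, and 0 isoforms, with 7. Low levels limit the rest: 1527 of 1682 loci were below the minimum for testing.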
